A study of Arabidopsis thaliana with 8 samples.

Results

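The 10 genes described here control or carry out the differentiation of xylem vessel elements in Arabidopsis thaliana, and they were picked by name, by their locus identifiers. They are the NAC factors VND6 (AT5G62380) and VND7 (AT1G71930), the MYB factors MYB46 (AT5G12870) and MYB83 (AT3G08500), the homeodomain factor KNAT7 (AT1G62990), the laccases LAC4 (AT2G38080) and LAC17 (AT5G60020), and the proteases XCP1 (AT4G35350), XCP2 (AT1G20850) and MC9 (AT5G04200). All 10 were found among the 36917 loci of the expression table, and all 10 passed the filter on low values that left 20251 genes for testing. Seedlings, 5 days old and grown under continuous light of 100 µmol photons per m2 per s, were profiled by RNA sequencing. There were 4 groups of 2 libraries each: irx3-2 on lincomycin (replicates 2 and 3), wild-type Col-0 on lincomycin (replicates 1 and 3), irx3-2 on Murashige and Skoog (MS) medium (replicates 1 and 2) and wild-type Col-0 on MS medium (replicates 2 and 3). Lincomycin, an antibiotic that blocks translation in plastids, was given at 50 µg/ml in the same medium. The line irx3-2 carries a mutant allele of CESA7 (IRX3), a cellulose synthase subunit of the secondary wall. Nothing in the sample labels says that the 2 libraries of a group came from separate cultures, so p-values measure the spread between these libraries, which may be technical.

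Xylem vessels are dead cells that conduct water. VND6 and VND7 are master switches that can turn other cell types into vessel elements, and they act through MYB46 and MYB83, which turn on the genes for cellulose, xylan and lignin of the secondary wall. KNAT7 is induced in the same network and represses parts of wall synthesis, LAC4 and LAC17 oxidise lignin monomers in the wall, and XCP1, XCP2 and the metacaspase MC9 clear the cell's contents during programmed cell death. VND7 is known to bind the promoters of several of these protease genes directly.

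The libraries held 15032240 to 19488440 reads each, and plastid genes took 54.1 to 58.1% of the reads on MS and 18.8 to 20.7% on lincomycin. Values are DESeq2-normalized counts, in which 1 read was worth 0.588 to 0.710 on lincomycin and 1.38 to 1.77 on MS, so a low level was measured more coarsely on MS. The 10 genes together had 748 to 2060 reads per library. CESA7, the mutated gene, was still transcribed in irx3-2: it had 294 and 401 normalized counts in irx3-2 and 222 and 210 in wild type on lincomycin, and 712 and 711 in irx3-2 and 265 and 278 in wild type on MS. It was higher in irx3-2 on both media (adjusted p = 0.0347 and 0.00760, limma), and leaving out any 1 of the 4 lincomycin libraries ended the call there (adjusted p up to 0.284).

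Sequences upstream of XCP1, XCP2 and MC9 are shown because these 3 members were called lower on lincomycin in both genotypes. They also differ in a motif tied to their regulators. The TERE motif, a tracheary-element element of 11 bases bound by VND factors, in which the fourth and the tenth base may be any base, was searched on both strands in the 250 bases before each annotated start (RefSeq, TAIR10.1), and matches to it and to the MYB motif SMRE are in capitals. The windows are chr4:16810232-16810481 for XCP1, chr1:7251861-7252110 for XCP2 and chr5:1153490-1153739 for MC9, all on the plus strand and printed 5′ to 3′.
XCP1: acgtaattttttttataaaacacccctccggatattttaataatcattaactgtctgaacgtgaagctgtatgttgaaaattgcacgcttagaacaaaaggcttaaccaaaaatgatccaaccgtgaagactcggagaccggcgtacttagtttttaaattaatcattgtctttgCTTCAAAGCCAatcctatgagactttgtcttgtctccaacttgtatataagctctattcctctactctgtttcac
XCP2: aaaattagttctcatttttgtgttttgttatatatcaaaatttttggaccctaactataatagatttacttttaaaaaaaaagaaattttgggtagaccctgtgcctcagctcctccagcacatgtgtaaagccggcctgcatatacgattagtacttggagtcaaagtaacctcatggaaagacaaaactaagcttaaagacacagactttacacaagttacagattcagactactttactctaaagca
MC9: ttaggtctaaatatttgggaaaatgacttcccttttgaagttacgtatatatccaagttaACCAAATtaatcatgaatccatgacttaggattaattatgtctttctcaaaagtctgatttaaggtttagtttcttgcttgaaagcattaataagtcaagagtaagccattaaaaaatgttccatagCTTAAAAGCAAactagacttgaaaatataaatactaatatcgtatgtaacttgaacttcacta

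The TERE match lay 75 to 65 bases before the start of XCP1 and 63 to 53 bases before that of MC9, and the letters were not in the XCP2 window. TERE was present in 2 of the 10 windows, against 0.368% of 27443 gene promoters of the same length (101 promoters). SMRE, which is ACCAA or ACCTA followed by AC, AT, CC or CT (8 forms), was present in 4 of the 10 windows (VND7, MYB83, LAC17 and MC9), against 29.4% of the promoters. The MC9 window was the only one of the 10 with both, and its SMRE match lay 190 to 184 bases before the start. The 10 genes were picked as xylem genes, so the shares are given as a description, and enrichment was not tested. A match of letters is a description of the window and shows no binding.

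Scaled by exon length, the proteases XCP2 and XCP1 stood highest in every group, and VND6, MYB46, VND7 and MYB83 were among the lowest, with KNAT7 near them on lincomycin. XCP2 averaged 266 ± 3.64 normalized counts per kb of exon in irx3-2 and 368 ± 12.6 in wild type on lincomycin, and 393 ± 73.8 in irx3-2 and 538 ± 22.4 in wild type on MS (SD, n = 2 each). XCP1 followed at 145 ± 9.56 per kb in irx3-2 and 195 ± 9.32 in wild type on lincomycin, and 206 ± 3.10 in irx3-2 and 297 ± 24.3 in wild type on MS, with no overlap between the libraries of the 2 genes in any group. The third place changed with the medium. LAC4 held it on lincomycin in irx3-2 and wild type, with 51.0 ± 7.56 and 64.1 ± 12.1 per kb, and MC9 held it on MS in irx3-2 and wild type, with 112 ± 7.14 and 120 ± 6.82 per kb. At the low end, VND6, MYB46, VND7 and MYB83 lay between 1.82 and 25.9 per kb in their group means. Neighbours there often did not separate: MYB83 and VND7 overlapped in 3 of the 4 groups, and in wild type on lincomycin VND7 stood alone in the last place, at 1.82 ± 0.567 per kb. KNAT7 overlapped 1 neighbour in each group, which was LAC17 for wild type on MS and VND6 for the other 3 groups.

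**Figure D1:**
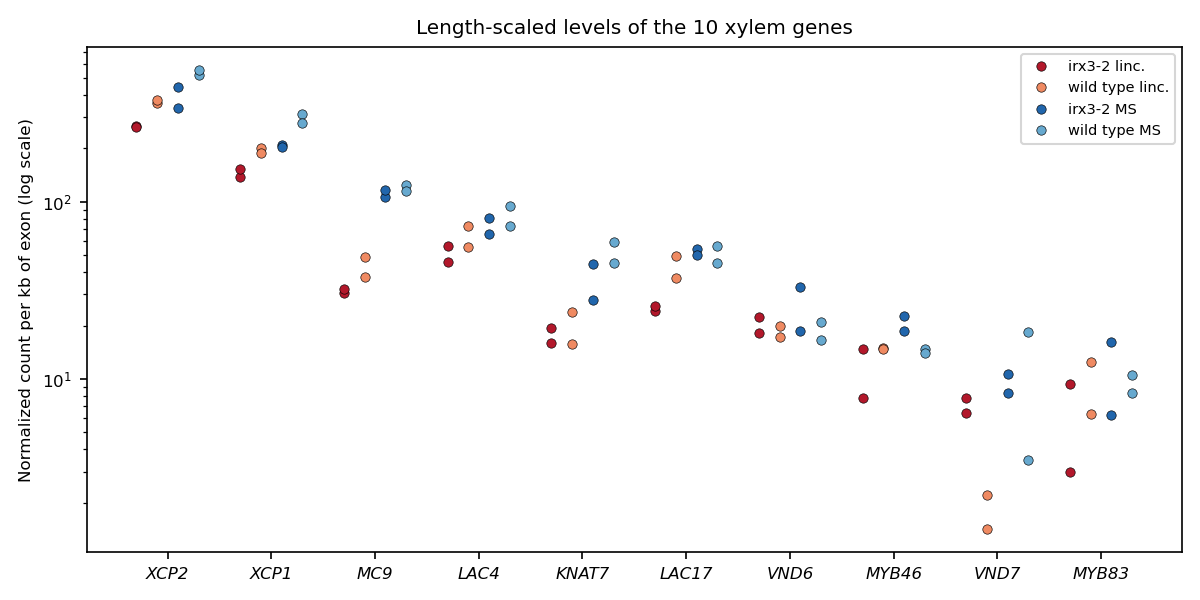
Normalized counts per kb of exon (log axis) of the 10 genes, ordered by their mean in wild type on MS, with 1 point per library and colours for the 4 groups. XCP2 and XCP1 stood above the other 8 genes in every group, VND7 had its lowest points in wild type on lincomycin, and MC9 dropped below LAC4 on lincomycin.

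Lincomycin lowered the autolysis proteases in both genotypes, and the master NAC and MYB factors did not pass the limma test in either. Those factors had few reads, at 10 to 86 per group, and SEs of 0.41 to 0.76, against 0.14 for XCP1 and XCP2. VND7 in wild type had a fitted change of -1.89 and passed in edgeR and DESeq2. The calls therefore do not show that the factors and the proteases differed. In irx3-2, 4 of the 10 genes were called lower on lincomycin than on MS and none higher (LAC17, XCP1, XCP2 and MC9), where 18% of all 20251 genes tested were called lower. In wild type, 4 of 10 were called lower and none higher (KNAT7, XCP1, XCP2 and MC9), where 17.2% of all genes were called lower. Calls are from limma on log2(normalized count + 1) with adjusted p below 0.05 over all genes tested. Without overlap between media, 8 of the 10 were lower in irx3-2 and 6 of the 10 in wild type, where 32.7% and 33.4% of all genes were. The median log2 fold change of the 10 genes was -0.70 in irx3-2 and -0.47 in wild type, and that of all genes tested was 0.04 and 0.02. The 4 calls in irx3-2 became 1 without irx3-2 lincomycin replicate 2 and 2 without irx3-2 lincomycin replicate 3. Those in wild type became 1 without wild-type lincomycin replicate 3 and 2 without wild-type MS replicate 2. The seedling RNA came from many cell types at once, so fewer vessel cells and less RNA per vessel cell cannot be told apart.

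**Figure D2:**
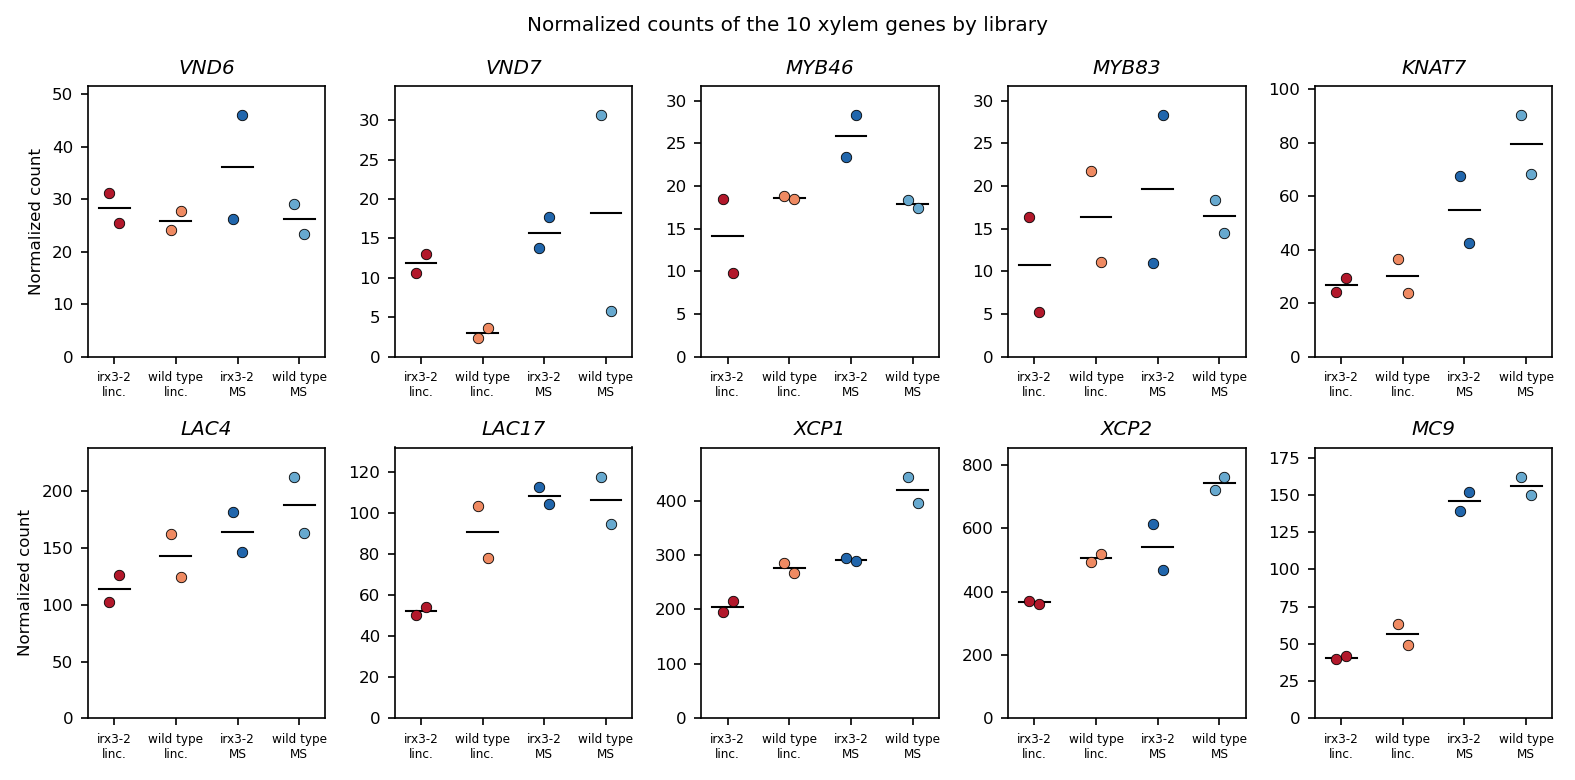
DESeq2-normalized counts of the 10 genes, 1 panel per gene with its own axis from 0, 1 point per library and a line at the mean of the 2 libraries of each group. MC9 sat at 39.7 to 63.6 on lincomycin and 139 to 162 on MS, XCP1 and XCP2 were highest in wild type on MS and lowest in irx3-2 on lincomycin, and the 2 libraries of a group lay far apart for MYB83 in 3 groups and for VND7 in wild type on MS.

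VND6, on chromosome 5 (25050152-25052054, plus strand), had 31.2 and 25.5 normalized counts in irx3-2 and 24.1 and 27.7 in wild type on lincomycin, against 26.2 and 46.0 in irx3-2 and 29.1 and 23.3 in wild type on MS. The libraries of the 2 media overlapped in both genotypes, and the fitted log2 changes with lincomycin were -0.29 ± 0.41 in irx3-2 and -0.01 ± 0.41 in wild type (SE). An antisense neighbour, AT5G62390, covers 4.05% of the gene and was much more abundant, at 474 to 860 normalized counts. Whether counting used the strand is not given in the sources used here, so a share of reads in that stretch may be the neighbour's.

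VND7, on chromosome 1 (27074702-27077991, plus strand), was the most variable of the 10. It had 10.6 and 13.1 normalized counts in irx3-2 and 2.35 and 3.69 in wild type on lincomycin, against 13.8 and 17.7 in irx3-2 and 30.6 and 5.82 in wild type on MS. VND7 was the 1 member whose transcript had a perfect match of 30 bases or more elsewhere in the nuclear genome (1 match), and whether reads were shared with it was not tested. The values came from few reads: 15 and 20 in irx3-2 and 4 and 6 in wild type on lincomycin, against 10 and 10 in irx3-2 and 20 and 4 in wild type on MS. The 2 wild-type libraries on lincomycin were the lowest of all 8, and the 2 on MS held both the highest value and one close to the lowest. In wild type the fitted change with lincomycin was -1.89 ± 0.76 (SE, adjusted p = 0.0877, limma), not past the threshold. It passed in edgeR (adjusted p = 0.0409) and DESeq2 (adjusted p = 0.0312) on the recovered reads, and in limma without wild-type MS replicate 3 (-3.00, adjusted p = 0.0120). In irx3-2 the change was -0.38 ± 0.76 (adjusted p = 0.736, limma).

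MYB46, on chromosome 5 (4062666-4065075, minus strand), had 18.5 and 9.80 normalized counts in irx3-2 and 18.8 and 18.4 in wild type on lincomycin, against 23.4 and 28.3 in irx3-2 and 18.4 and 17.5 in wild type on MS. Wild type gave nearly the same value in all 4 libraries. Both irx3-2 libraries on lincomycin lay below both on MS, with a fitted change of -0.88 ± 0.47 (SE, adjusted p = 0.176, limma). Its close relative MYB83, on chromosome 3 (2576444-2578276, minus strand), had 16.3 and 5.23 in irx3-2 and 21.8 and 11.1 in wild type on lincomycin, against 11.0 and 28.3 in irx3-2 and 18.4 and 14.5 in wild type on MS. Its libraries overlapped in both genotypes, and the 95% interval of its change ran from -2.35 to 0.64 in irx3-2 and from -1.56 to 1.43 in wild type.

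KNAT7, on chromosome 1 (23337167-23340692, plus strand), had 24.1 and 29.4 normalized counts in irx3-2 and 36.5 and 24.0 in wild type on lincomycin, against 67.5 and 42.5 in irx3-2 and 90.4 and 68.4 in wild type on MS. The lincomycin libraries lay below the MS libraries in both genotypes. In wild type KNAT7 was 2.60-fold lower on lincomycin (log2 change -1.38 ± 0.37, adjusted p = 0.0172, limma). That call was lost without wild-type MS replicate 2 (adjusted p = 0.0940) and without wild-type lincomycin replicate 3 (adjusted p = 0.149). In irx3-2 the change was -0.98 ± 0.37 (adjusted p = 0.0633, limma), past the threshold only without irx3-2 MS replicate 2 (adjusted p = 0.0353). The test of the difference between genotypes gave 0.40 ± 0.52 (SE, adjusted p = 0.808), so the calls do not show that the genotypes differed.

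LAC4, on chromosome 2 (15934244-15937616, plus strand), had 102 and 126 normalized counts in irx3-2 and 162 and 124 in wild type on lincomycin, against 182 and 147 in irx3-2 and 213 and 163 in wild type on MS. Both genotypes were lower on lincomycin without overlap, by log2 changes of -0.52 ± 0.23 in irx3-2 and -0.39 ± 0.23 in wild type (SE), and neither passed the test (adjusted p = 0.100 and 0.229, limma). LAC17, on chromosome 5 (24167996-24170462, plus strand), had 50.4 and 54.2 in irx3-2 and 104 and 78.1 in wild type on lincomycin, against 113 and 104 in irx3-2 and 118 and 94.6 in wild type on MS. The 2 irx3-2 libraries on lincomycin stood apart below the other 6, which ran from 78.1 to 118. LAC17 was 2.06-fold lower on lincomycin in irx3-2 (log2 change -1.04 ± 0.25, adjusted p = 0.00798, limma), a call lost without irx3-2 lincomycin replicate 2 (adjusted p = 0.0605). In wild type its libraries overlapped and the change was -0.23 ± 0.25 (adjusted p = 0.530). An antisense pair of loci, AT5G60022 and AT5G00685, covers 97.4% of LAC17, and these were counted at 0 to 7.08 and 0 to 4.60 normalized counts. As the use of the strand in counting is not given, LAC17 reads may have been shared with them or left out, which was not tested.

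XCP1, on chromosome 4 (16810482-16812077, plus strand), is a papain-like protease of the vessel's vacuole. It had 196 and 215 normalized counts in irx3-2 and 285 and 266 in wild type on lincomycin, against 295 and 288 in irx3-2 and 444 and 396 in wild type on MS. XCP2, its paralog on chromosome 1 (7252111-7253747, plus strand), had 370 and 363 in irx3-2 and 494 and 519 in wild type on lincomycin, against 613 and 469 in irx3-2 and 720 and 764 in wild type on MS. For both genes every lincomycin library lay below every MS library of the same genotype. XCP1 was 1.42-fold lower in irx3-2 (log2 change -0.50 ± 0.14, adjusted p = 0.0171) and 1.52-fold lower in wild type (-0.61 ± 0.14, adjusted p = 0.00779, limma). XCP2 was 1.46-fold lower in irx3-2 (-0.55 ± 0.14, adjusted p = 0.0111) and 1.46-fold lower in wild type (-0.55 ± 0.14, adjusted p = 0.0125, limma). In irx3-2 the XCP1 call was lost without lincomycin replicate 2 (adjusted p = 0.130) or 3 (adjusted p = 0.0503), and the XCP2 call without MS replicate 1 (adjusted p = 0.0502) or lincomycin replicate 2 (adjusted p = 0.0645) or 3 (adjusted p = 0.0680). In wild type the XCP1 call was lost without MS replicate 2 (adjusted p = 0.0519) or lincomycin replicate 3 (adjusted p = 0.0748), and the XCP2 call without MS replicate 3 (adjusted p = 0.0592) or lincomycin replicate 1 (adjusted p = 0.0993) or 3 (adjusted p = 0.0655). The coding sequences of XCP1 and XCP2 are 73.0% identical over 1061 aligned bases, the closest of the 4 related pairs here, and neither has a perfect match of 30 bases or more elsewhere in the nuclear genome.

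MC9, on chromosome 5 (1153740-1155040, plus strand, 1 exon), had 39.7 and 41.8 normalized counts in irx3-2 and 63.6 and 49.2 in wild type on lincomycin, against 139 and 152 in irx3-2 and 162 and 150 in wild type on MS. The lincomycin and MS values were far apart in each genotype and close within each group. MC9 was 3.51-fold lower on lincomycin in irx3-2 (log2 change -1.81 ± 0.24, adjusted p = 1.74e-04, limma) and 2.76-fold lower in wild type (-1.46 ± 0.24, adjusted p = 8.76e-04). It was the 1 member whose calls held in each of the 8 fits that left out a library, with adjusted p of at most 0.00323 in irx3-2 and 0.0165 in wild type. Among the other metacaspases, 6 of 8 genes were tested, and MC6 was the 1 called lower on lincomycin, by log2 changes of -2.41 in irx3-2 (adjusted p = 0.0117) and -2.30 in wild type (adjusted p = 0.0169). The MC6 calls were lost without irx3-2 MS replicate 1 or lincomycin replicate 2 (adjusted p up to 0.0745), and without wild-type MS replicate 3 or lincomycin replicate 1 (up to 0.140). MC3 was higher on lincomycin in wild type, by 0.78 (adjusted p = 0.00302).

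**Figure D3:**
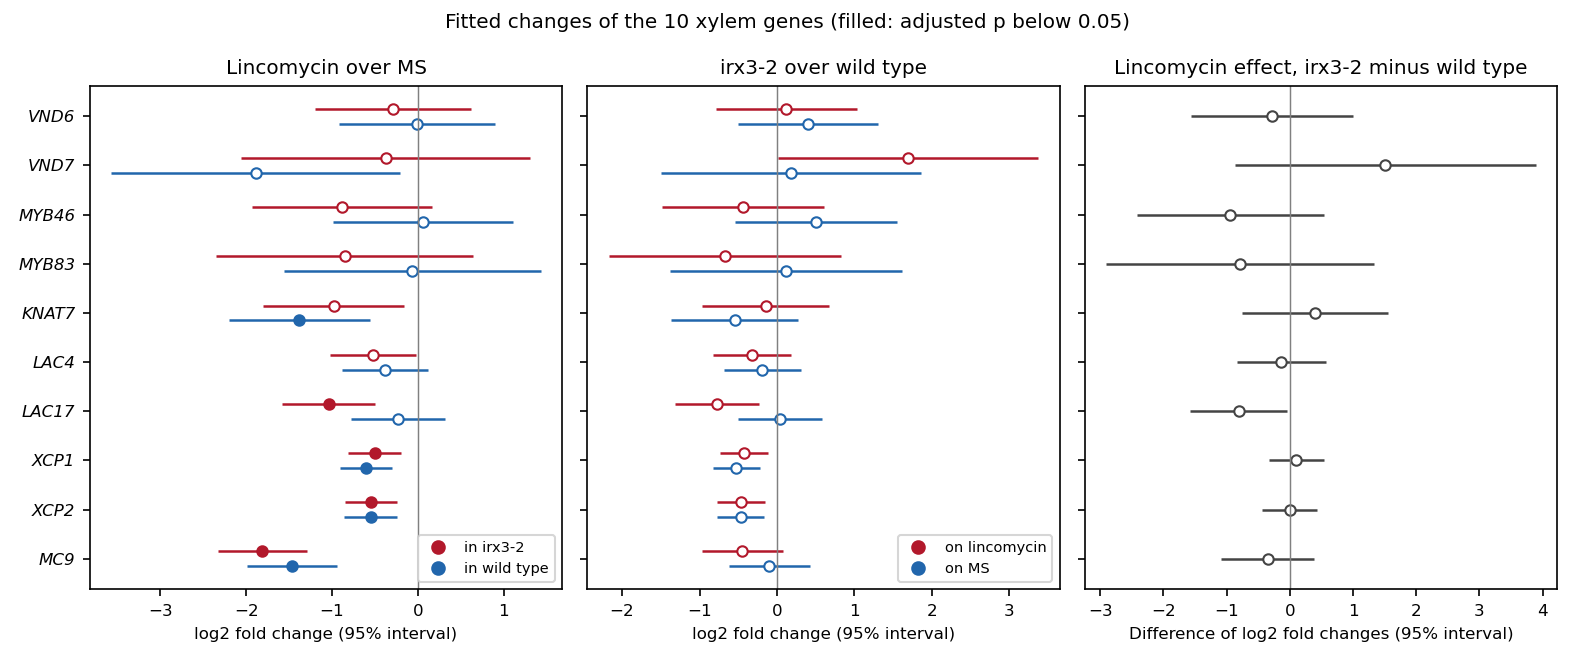
Fitted log2 fold changes of the 10 genes with 95% intervals, for lincomycin over MS in each genotype (left), irx3-2 over wild type on each medium (middle), and the difference between the genotypes' lincomycin effects (right). Filled points have an adjusted p below 0.05: 4 genes in each genotype for lincomycin, with MC9 farthest below 0 in irx3-2, and no gene in the other panels.

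Between the genotypes, none of the 10 genes passed the test on either medium. On lincomycin 5.68% and on MS 0.217% of all genes tested were called. At an unadjusted p below 0.05, 4 members differed on lincomycin and 2 on MS by limma, and the same numbers did so by edgeR and by DESeq2, where 18.7% and 13.5% of all genes did by limma. The proteases XCP1 and XCP2 were in both sets. On lincomycin, XCP1 differed by -0.42 ± 0.14 (SE, adjusted p = 0.116, limma) and XCP2 by -0.47 ± 0.14 (adjusted p = 0.0821, limma). On MS, XCP1 differed by -0.52 ± 0.14 (adjusted p = 0.191, limma) and XCP2 by -0.47 ± 0.14 (adjusted p = 0.227, limma). Their irx3-2 libraries lay below the wild-type libraries on both media with no overlap, which 6.38% of all genes tested did. In all, 4 members lay lower without overlap on lincomycin (27.2% of all genes) and 3 on MS (18.4%), and 1 lay higher on each medium (30.4% and 19.1%). XCP2 passed on MS without irx3-2 MS replicate 1 (adjusted p = 0.0267), and on lincomycin without irx3-2 MS replicate 1 (adjusted p = 0.0193) or 2 (adjusted p = 0.0186). The fits behind those XCP2 calls also called more of all genes than the main fit did. With only the 4 lincomycin libraries in the fit, XCP1, XCP2 and LAC17 passed (adjusted p = 0.0398, 0.00758 and 0.0457, limma). That fit called 3311 of all 20251 genes, against 1150 in the main fit.

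None of the remaining members had irx3-2 and wild-type libraries without overlap on both media. LAC17 differed between irx3-2 and wild type by -0.77 ± 0.25 on lincomycin (SE, adjusted p = 0.105, limma) and by 0.04 ± 0.25 on MS (adjusted p = 0.962, limma). VND7 differed by 1.69 ± 0.76 on lincomycin (adjusted p = 0.264, limma), where its 2 irx3-2 libraries lay above the 2 wild-type ones, and by 0.18 ± 0.76 on MS. MYB46 was the only other member whose irx3-2 libraries lay wholly above those of wild type, on MS, by 0.50 ± 0.47 (adjusted p = 0.672, limma). KNAT7 on MS and MC9 on lincomycin lay wholly below, by -0.55 ± 0.37 and -0.45 ± 0.24, and neither passed (adjusted p = 0.541 and 0.357, limma). The median over the 10 genes was -0.43 on lincomycin and -0.03 on MS, and that of all genes tested was 0.01 and -0.01.

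No member's lincomycin effect was shown to differ between irx3-2 and wild type, in a test that called 0.657% of all genes. At an unadjusted p below 0.05 there was 1 member by limma, 1 by edgeR and 0 by DESeq2, where 12.6% of all genes differed by limma. That 1 was LAC17 in limma, with a difference of -0.81 ± 0.35 (SE, 95% interval -1.58 to -0.04, adjusted p = 0.367). For XCP1 and XCP2 the differences were 0.10 and 0.00, with intervals from -0.33 to 0.54 and from -0.43 to 0.43 on the log2 scale. For VND7 the interval ran from -0.86 to 3.89, so its data leave a wide range of differences possible.

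Across all the comparisons, XCP1 and XCP2 were the members that lay lower without overlap in each of the 4 pairs of groups, a pattern that 2.1% of all genes tested (425) had. VND7, KNAT7, LAC4, XCP1, XCP2 and MC9, 6 of the 10, were lower on lincomycin without overlap in both genotypes, as were 23.3% of all genes (4718). The pairs of groups share libraries, so these patterns are not independent of each other. As a description over the 8 libraries, the Pearson correlation of log2(normalized count + 1) was 0.94 for XCP1 with XCP2, 0.92 for KNAT7 with LAC4, 0.90 for KNAT7 with MC9 and 0.89 for LAC4 with LAC17, and 0.79 for MYB46 with MYB83. VND6 and VND7 correlated at 0.48 with each other. KNAT7, the laccases and the proteases correlated with one another at 0.77 to 0.94 (15 pairs), and with VND6, VND7, MYB46 or MYB83 at -0.28 to 0.62 (24 pairs), over 8 libraries that share a split by medium and genotype. VND6, VND7, MYB46 and MYB83 had few reads, at 10 to 86 per group, and the effect of that on their correlations was not tested.

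Of all genes tested, those with the most similar profile over the 8 libraries by the same measure were named for 4 members. For XCP1 they were EX1 (r = 0.99), AT5G17820 (0.98) and XPB1 (0.98), and for LAC4 they were AT5G03995, AT4G32250 and TGA1 (each 0.96). For VND7 they were AT2G39130 (0.97), AT2G02590 (0.97) and PYD4 (0.96), and for MYB46 they were AT2G32840 (0.97), ACR6 (0.97) and AT5G06270 (0.95). No other xylem gene of the lists used here was among them.

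Beyond the 10, a list of 64 further xylem genes was read out in the same fit, and 55 of them were tested. On lincomycin in irx3-2, 17 of the 55 were called lower and 4 higher, with a median log2 change of -0.42, against 18% lower and 15.8% higher over all genes and an all-gene median of 0.04. In wild type 9 were called lower and 5 higher, with a median of -0.35, against 17.2% lower and 12% higher over all genes and an all-gene median of 0.02. The 21 calls in irx3-2 became 13 without irx3-2 lincomycin replicate 2. The 14 calls in wild type became 4 without wild-type lincomycin replicate 3, 5 without wild-type lincomycin replicate 1 and 7 without wild-type MS replicate 2.

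**Figure D4:**
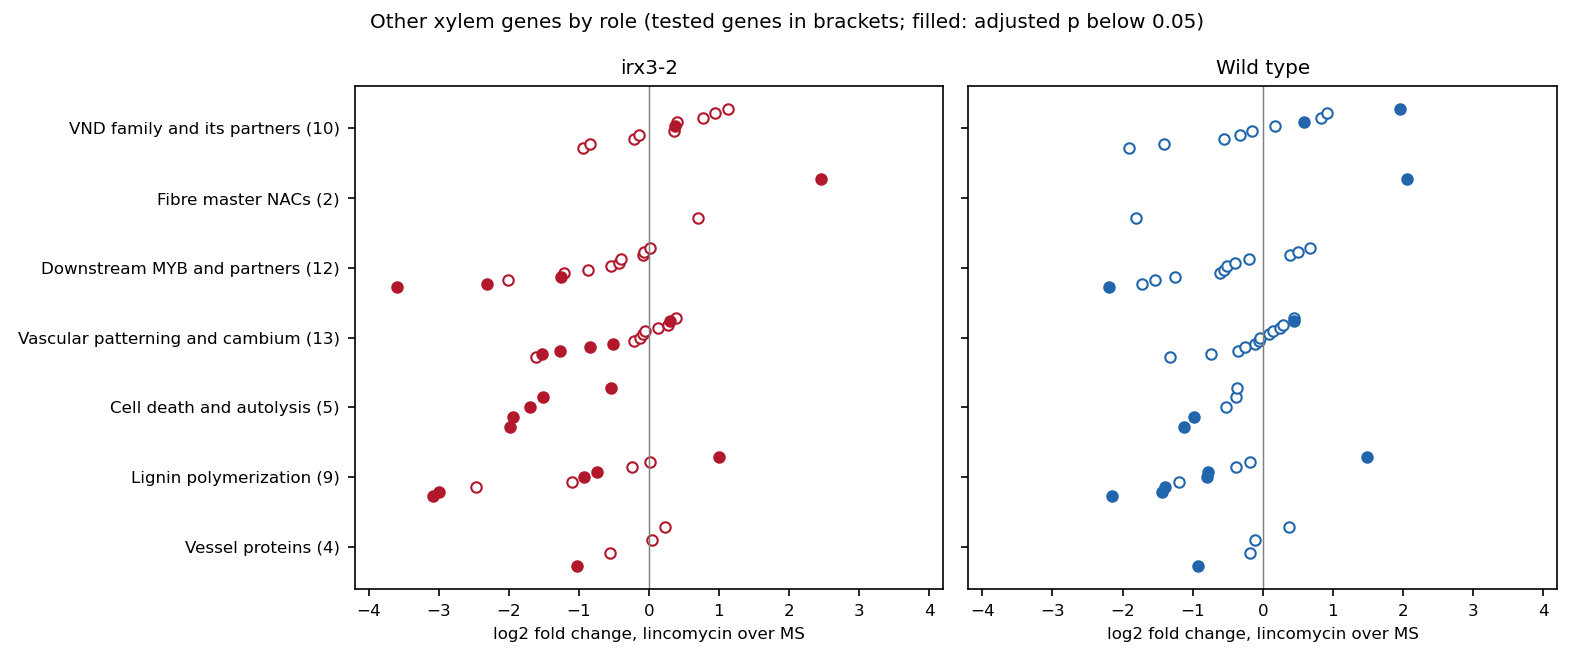
Log2 fold changes on lincomycin over MS of the 55 tested genes of the wider xylem list, in irx3-2 (left) and wild type (right), by role with the number tested in brackets, and filled where the adjusted p was below 0.05. The 5 cell death and autolysis genes lay below 0 in both genotypes, with 5 filled in irx3-2 and 2 in wild type, and in the VND group the filled points, 1 in irx3-2 and 2 in wild type, lay above 0.

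The genes of cell death and autolysis other than the 3 member proteases all had negative changes on lincomycin: 5 of 5 were called lower in irx3-2 and 2 of 5 in wild type, where 18% and 17.2% of all genes were. DESeq2, and limma on CPM, called 4 of the 5 in irx3-2, without XSP1. The same held for limma with no filter, with only the groups compared and with a replicate block. These 5 were described by name after their values were seen. The nuclease BFN1 had 40.5 and 40.5 normalized counts in irx3-2 and 63.0 and 52.3 in wild type on lincomycin, against 169 and 104 in irx3-2 and 104 and 125 in wild type on MS. Its log2 change was -1.69 in irx3-2 (adjusted p = 0.00102, limma) and -0.98 in wild type (adjusted p = 0.0252). The ribonuclease RNS3 changed by -1.93 in irx3-2 (adjusted p = 7.68e-04, limma) and -1.13 in wild type (adjusted p = 0.020). Both wild-type calls were lost without lincomycin replicate 1 or 3, and also without MS replicate 3 for BFN1 and MS replicate 2 for RNS3 (adjusted p up to 0.165 and 0.125). The protease CEP1, which works in dying cells, had 12.8 and 14.4 in irx3-2 and 70.0 and 75.6 in wild type on lincomycin, against 74.4 and 42.5 in irx3-2 and 88.9 and 124 in wild type on MS. It changed by -1.98 on lincomycin in irx3-2 (adjusted p = 0.00135, limma). The aspartic protease PASPA3 and the serine protease XSP1 changed by -1.50 and -0.54 in irx3-2 (adjusted p = 0.0118 and 0.0439). The PASPA3 call was lost without irx3-2 MS replicate 2 or lincomycin replicate 2 (adjusted p up to 0.122), and the XSP1 call without any of the 4 irx3-2 libraries or wild-type lincomycin replicate 1 (up to 0.267). For none of the 5 did the test of the difference between genotypes pass (CEP1 alone had an unadjusted p below 0.05 in limma, -1.45, adjusted p = 0.233).

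On lincomycin in irx3-2, 4 of 13 vascular patterning and cambium genes were called lower (HB8, TMO5, T5L1 and ACL5) and 1 higher (LHW). In wild type 0 were lower and 1 higher (CLE41). Of 12 downstream MYB genes and partners, 3 were lower in irx3-2 (MYB20, MYB52, MYB54) and 1 in wild type (MYB52). Over all genes 18% were lower and 15.8% higher in irx3-2, and 17.2% and 12% in wild type. Only the HB8, TMO5, T5L1 and irx3-2 MYB52 calls held without any 1 library. Among the transcription factors of the wider list, the NAC factor SND3 went against the members. It had 220 and 227 normalized counts in irx3-2 and 133 and 152 in wild type on lincomycin, against 49.6 and 31.9 in irx3-2 and 30.6 and 36.4 in wild type on MS. It was higher on lincomycin by 2.46 in irx3-2 (adjusted p = 4.98e-05, limma) and 2.06 in wild type (adjusted p = 2.04e-04), and both calls held without any 1 library. VND1, a relative of VND6 and VND7, was higher in wild type by 1.95 (adjusted p = 0.0261, limma), a call lost without wild-type MS replicate 3 or either wild-type lincomycin library (adjusted p up to 0.15). Of the 10 tested genes in the group of VND relatives and partners, none was called lower in either genotype. The call counts there were 1 higher in irx3-2 (VNI2, a repressor that binds VND7) and 2 higher in wild type (VND1 and VNI2). The VNI2 calls were lost in irx3-2 without any 1 library other than the wild-type MS ones (adjusted p up to 0.189), and in wild type without lincomycin replicate 3 (0.0572).

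MYB52, a MYB factor downstream of the master switches, was the gene of the wider list with the largest negative change. It had 0.710 and 1.31 normalized counts in irx3-2 and 6.47 and 11.1 in wild type on lincomycin, against 24.8 and 21.2 in irx3-2 and 49.0 and 36.4 in wild type on MS. Its fitted change was -3.59 in irx3-2 (adjusted p = 7.66e-04, limma) and -2.19 in wild type (adjusted p = 0.0161), and it understates the change at such low values. The wild-type call was lost without MS replicate 2 or either lincomycin library (adjusted p up to 0.132). Among the lignin genes, LAC5 changed by -3.08 in irx3-2 (adjusted p = 0.00332, limma) and -2.15 in wild type (adjusted p = 0.0254), the second lost without MS replicate 2 or either lincomycin library (adjusted p up to 0.189). LAC12 changed by -2.99 in irx3-2 (adjusted p = 0.00393, limma). Of 9 lignin polymerization genes tested, 4 were called lower and 1 higher in irx3-2, and 5 lower and 1 higher in wild type, against 18% lower and 15.8% higher over all genes in irx3-2 and 17.2% lower and 12% higher in wild type. In wild type the 5 lower calls became 1, that of the peroxidase gene AT5G51890, without MS replicate 2, lincomycin replicate 1 or lincomycin replicate 3. The 1 higher was the peroxidase PRX71 in both, by 0.99 in irx3-2 (adjusted p = 0.00633, lost without irx3-2 lincomycin replicate 3 at 0.0824) and 1.48 in wild type (adjusted p = 6.05e-04).

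Between irx3-2 and wild type, 3 of the 55 genes were called lower on lincomycin and 0 on MS, where 5.68% and 0.217% of all genes were called in either direction. At an unadjusted p below 0.05, 13 and 8 of the 55 differed by limma, against 18.7% and 13.5% of all genes. The 3 were CEP1 (log2 difference -2.34, adjusted p = 0.00422, limma), MYB52 (-2.26, adjusted p = 0.0480) and ACL5, a thermospermine synthase that delays vessel maturation (-0.63, adjusted p = 0.0247). All 3 calls were lost without either wild-type lincomycin library or irx3-2 lincomycin replicate 2, with adjusted p of up to 0.0843 for CEP1, 0.383 for MYB52 and 0.253 for ACL5. Those of MYB52 and ACL5 were also lost without irx3-2 lincomycin replicate 3, and that of MYB52 without either wild-type MS library. The count of 3 became 7 without either irx3-2 MS library. EdgeR called 5 and DESeq2 4 on lincomycin. On MS edgeR and DESeq2 also called 0, with 7 and 5 at an unadjusted p below 0.05. In the test of the difference in lincomycin effects limma, edgeR and DESeq2 each called 0, with 7 at an unadjusted p below 0.05 in each, against 12.6% of all genes by limma.

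The genes that build the secondary wall were read out as a list of 17, all tested. On lincomycin 4 were called lower and 1 higher in each genotype: CESA4, CESA7, IRX9 and GUX2 lower in irx3-2, CESA4, CTL2, IRX15L and GUX2 lower in wild type, and IRX14 higher in both. Over all genes 18% were called lower and 15.8% higher in irx3-2, and 17.2% lower and 12% higher in wild type. Every one of these calls but that of CESA7 in irx3-2 was lost without at least 1 library of its own genotype, with adjusted p up to 0.304 in irx3-2 and 0.193 in wild type over the fits without 1 library. The median change of the 17 was -0.58 in irx3-2 and -0.52 in wild type, and that of all genes tested was 0.04 and 0.02. Outside CESA7 none of the 17 was called between genotypes on either medium.

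Markers of other cell types were read out in the same fit, and they did not all move the same way. The 5 phloem markers together had 3071.6 to 3455 normalized counts in irx3-2 and 4297 to 4396 in wild type on lincomycin, against 4051 to 4223 in irx3-2 and 3532 to 3867 in wild type on MS. On lincomycin 1 of 5 was called lower in irx3-2 (SEOR1, -0.63, adjusted p = 0.00111, limma), and 2 of 5 were called higher in wild type (APL by 0.67 and PP2-A1 by 0.41). Those 2 calls were lost without wild-type lincomycin replicate 1 or 3, and that of PP2-A1 also without wild-type MS replicate 2 (adjusted p up to 0.122). The 10 xylem genes summed to 859 to 883 in irx3-2 and 1121 to 1212 in wild type on lincomycin, against 1324 to 1483 in irx3-2 and 1696 to 1845 in wild type on MS. In irx3-2 the xylem and the phloem sums were both lower on lincomycin, and in wild type the xylem sum was lower and the phloem sum higher, each without overlap. The 3 root hair markers summed to 28.4 to 59.5 in irx3-2 and 22.1 to 32.4 in wild type on lincomycin, against 48.2 to 186 in irx3-2 and 153 to 250 in wild type on MS. Of these, 1 was called lower on lincomycin in irx3-2 (EXPA7) and 2 in wild type (EXPA7 and EXPA18). The 2 root endodermis markers summed to 18.3 to 26.3 in irx3-2 and 16.5 to 36.3 in wild type on lincomycin, against 34.4 to 60.2 in irx3-2 and 69.8 to 101 in wild type on MS, with 1 of 2 called lower in each genotype. The 2 guard cell markers had 197 to 226 in irx3-2 and 325 to 369 in wild type on lincomycin, against 260 to 492 in irx3-2 and 270 to 537 in wild type on MS. None of the markers was at 0. Root hair and endodermis sums were lower on lincomycin in wild type without overlap, as the xylem sum was, and the guard cell sums overlapped. In irx3-2 the endodermis and guard cell sums were lower without overlap, and the root hair sums overlapped. No guard cell marker was called by limma in either genotype. EdgeR and DESeq2 each called 1 of the 2 (FAMA) for lincomycin in irx3-2. Between irx3-2 and wild type on lincomycin, 2 of 5 phloem markers were called lower, where 5.68% of all genes were called in either direction. They were APL (-0.67, adjusted p = 0.0307, limma) and PP2-A1 (-0.60, adjusted p = 0.0118, limma). Both calls were lost without any 1 of the 4 lincomycin libraries. The 2 guard cell markers lay lower there without overlap, as did 27.2% of all genes, and were not called. On MS no marker was called between genotypes. The part of these cell types in the xylem result was not tested. Of the reference genes, ACT2 was lower on lincomycin, by -1.13 in irx3-2 (adjusted p = 3.54e-05, limma) and -0.86 in wild type (adjusted p = 2.92e-04), and UBC21 was not called.

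The authors' deposited tables were read for the same 10 genes. The authors' deposited table of lincomycin over MS in wild type calls KNAT7, XCP1, XCP2 and MC9 (4 of 10 members, 23.5% of all genes with an adjusted p). The authors' deposited table for irx3-2, which puts MS on top of lincomycin, calls LAC17, XCP2 and MC9 higher on MS (3 of 10 members, 27.7% of all genes), and gives XCP1 an adjusted p of 0.0521. In the authors' deposited genotype tables no member was called, of the 6 on lincomycin and the 9 on MS with an adjusted p, where 8.62% and 0.801% of all genes with one were.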

How the data were processed

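The authors' deposited tables hold DESeq2-normalized counts (a signal per gene) for 8 libraries, with log2 fold changes, standard errors, test scores, p-values and adjusted p-values of 4 comparisons. Per the submitters' processing notes, Trimmomatic, FastQC, TopHat2 2.1.1, featureCounts and DESeq2 were used with TAIR10, and per the labels' protocols libraries were TruSeq from total RNA. The deposited normalized counts of each library were whole multiples of 1 read (100% of values, tolerance 0.01 reads), so reads were recovered for the count tests.

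The main test was limma 3.58.1 (R 4.3.3) with a mean-variance trend on log2(normalized count + 1), so fold changes of low genes are understated. It ran over 20251 genes, those reaching a normalized count of 10 in 2 or more libraries, with 4 group means, 4 residual degrees of freedom and Benjamini-Hochberg adjustment over all genes. A gene was called at an adjusted p below 0.05. Intervals are 95% intervals of the fit. Alternatives were edgeR 4.0.16 with TMM, DESeq2 1.42.0, CPM with TMM, nuclear size factors, pseudocounts of 0.5 and 5, no filter, only the groups compared, a replicate block and each library left out. Of these fits, limma with 4 group means and edgeR were run on simulated counts, for lincomycin in wild type, and the others were not.

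The 10 genes, the wider lists and the tests were chosen with earlier results of these data known. All 10 members are named, and of each list up to 4 called genes with the largest change, except the cell death genes, which are all named. Further called genes are named where a group of genes is described. Levels between genes were compared per kb of exon (RefSeq TAIR10.1). Protein sequences are not analysed here.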

Additional observations from a re-analysis of the deposited data

How the results depend on the processing

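Of the 840 recomputed changes of single members, 775 kept direction and call, 10 gained a call, 15 lost one and 40 turned sign. The calls lost or gained without 1 library, and in the fits of the lincomycin libraries alone, stand with their genes above. None of the 40 was past the threshold in the main test. Depth was lowest for VND7, with 10 to 35 reads per group of 2 libraries. The fit of only the groups compared gives no test of the difference in lincomycin effects.

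Sign changes on the log2 scale were as follows, and their cause was not tested. With edgeR and with CPM, lincomycin in wild type gave 0.0026 and 0.024 for VND6 and 0.017 and 0.0072 for MYB83. With edgeR, DESeq2 and CPM, irx3-2 against wild type on MS gave -0.20, -0.21 and -0.011 for VND7, and the difference in lincomycin effects gave -0.040, -0.014 and -0.027 for XCP2. With 1 library left out, values of the following ran across 0. For lincomycin in irx3-2, VND6 ran from -0.69 to 0.11. In wild type, VND6 ran from -0.17 to 0.14 and MYB83 from -0.53 to 0.39. For irx3-2 against wild type on lincomycin, VND6 ran from -0.019 to 0.26, MYB83 from -1.41 to 0.064 and KNAT7 from -0.44 to 0.15. On MS, VND7 ran from -0.93 to 1.29, MYB83 from -0.53 to 0.76, LAC4 from -0.38 to 0.0040 and LAC17 from -0.12 to 0.20. For the difference in lincomycin effects, VND6 ran from -0.68 to 0.12, LAC4 from -0.32 to 0.060 and XCP2 from -0.19 to 0.19.

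Replicate numbers were not treated as pairs, and same-numbered libraries' deviations correlated at -0.137 to 0.126. With 2 libraries a group the deviations within a group mirror each other, so these correlations cannot show whether the numbers marked pairs. With a replicate block (2 residual degrees of freedom), calls in the wider list were 7 for lincomycin in wild type (14 without the block) and 1 for irx3-2 on lincomycin (3). Members called for lincomycin in irx3-2 were 2 (4), since LAC17 and XCP1 gave adjusted p = 0.0593 and 0.0878. All-gene calls were 18 for irx3-2 on MS (44), 337 on lincomycin (1150) and 24 for the difference (133). With the block VND6 and MYB83 became 0.324 and 0.315 for lincomycin in wild type, MYB83 and LAC17 -0.0845 and -0.125 for irx3-2 on MS, VND6 and KNAT7 -0.212 and 0.155 on lincomycin, and LAC4 0.213 for the difference.

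Counts called moved by more than 1.5 times as follows. For irx3-2 on MS, all-gene calls (44) were 144 with DESeq2, 72 with CPM, 4 with no filter and 0 with only the groups compared (1250 at an unadjusted p below 0.05; edgeR called 59). For irx3-2 on lincomycin (1150) they were 580 with no filter and 3311 with only the groups compared, and for the difference (133) 376 with DESeq2 and 29 with no filter. The wider list gave 8 for lincomycin in wild type with no filter, and for irx3-2 on lincomycin 5 with edgeR, 1 with no filter and 12 with only the groups compared, where 3 members were called. Without a filter the median of all genes moved to 0.14 for lincomycin in irx3-2, 0.11 for irx3-2 on lincomycin and 0.12 for the difference.

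With 1 library left out, all-gene calls ran from 3829 to 7262 for lincomycin in irx3-2, 3299 to 7110 in wild type, 116 to 1967 for irx3-2 on lincomycin, 15 to 901 on MS and 11 to 357 for the difference. Member calls ran from 1 to 5, 1 to 4, 0 to 1, 0 to 1 and 0 to 0, and those of the wider list from 13 to 24, 4 to 16, 0 to 7, 0 to 1 and 0 to 0. A group left with 1 library was assumed to vary like the others.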
